A study of Danio rerio with 4 samples.

Results

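A peak on chromosome 14, chr14:31236882-31237431, was open in some nuclei of the non-cardiomyocytes (nonCMs) of the zebrafish heart and closed in most. The peaks described here are those that were open more often wherever this peak was open. Nuclei were split by its value, and a peak counted as a member where its open calls per 1000000 open calls, plus 10, were at least 2 times as high in nuclei open at the chromosome 14 peak as in nuclei closed at it. Peaks had to be open in 20 or more nuclei, and peaks within 100000 bp of the chromosome 14 peak were left out. Members were thus chosen by their open calls in these same nuclei. The rule gave 1965 members among 35006 tested peaks and 50394 peaks in all.

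Accessibility was profiled by scATAC-seq, which inserts adaptors into accessible DNA and tags the fragments by nucleus. NonCMs are the heart cells other than cardiomyocytes, and they were separated by centrifugation from hearts of wild type zebrafish. Libraries were made at 0, 2, 7 and 14 days after resection of the apex of the ventricle (dpa), 1 at each time. The paper states that both uninjured and regenerating ventricles were used, and day 0 is taken here as the uninjured time. The matrix holds 1 row per nucleus, and each value is 1 (open) or 0 (not open), so it holds no read depth per peak. No row name gives a library, so all 2737 nuclei were treated as 1 pooled sample, no time points were compared and no p-value was computed. Whether animals were pooled in a library is not given in the sources used here. Peaks are named by position as the matrix gives it. The submitters' processing notes name danRer11 as the build. Genes and sequences at the peaks were not analysed here, and the labelled tissue was not checked against marker genes.

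A closed stretch of DNA is wrapped on nucleosomes and is hard for a transposase to reach, while promoters and enhancers in use are open. Which distal enhancers are open differs between cell types far more than which promoters are, so peaks that open together across many chromosomes usually mark a cell type or cell state. The nonCMs of the zebrafish heart include endocardial endothelial cells, epicardial cells and fibroblasts, macrophages, lymphocytes, erythrocytes and thrombocytes. A single nucleus yields few fragments, so a peak that is accessible in a cell is scored open in only a part of such nuclei.

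The chromosome 14 peak was 549 bp wide and open in 168 of 2737 nuclei (6.14%, exact 95% interval 5.27 to 7.10). Nuclei open at it were deeper, with a median of 1707 open peaks (range 425 to 6085), than the 2569 nuclei closed at it, with a median of 1121 (range 77 to 10959). It was open in 4 of the 274 nuclei of the lowest of 10 equal classes of depth (1.46%) and in 43 of the 274 of the highest (15.7%). Depth therefore went with the split. The rule scales by total open calls, and ratios within the 10 classes of depth are given beside its own.

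The values in the next 3 paragraphs chose the members and are a description of them. The members were 5.61% of the tested peaks. Their median ratio was 2.29, with quartiles of 2.14 and 2.54 and a highest value of 4.20, and 102 members reached 3. The median over all tested peaks was 0.894. A typical member was open in 11.3% of nuclei with the chromosome 14 peak open and in 2.41% of the others, while the median tested peak was open in 2.98% and 2.02%. Since 10 per 1000000 was added to both sides, the ratio understates the change of sparse peaks. Without that addition the median ratio of the members was 3.17. In the opposite direction, 2498 tested peaks (7.14%) had a ratio of 0.5 or less.

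**Figure D1:**
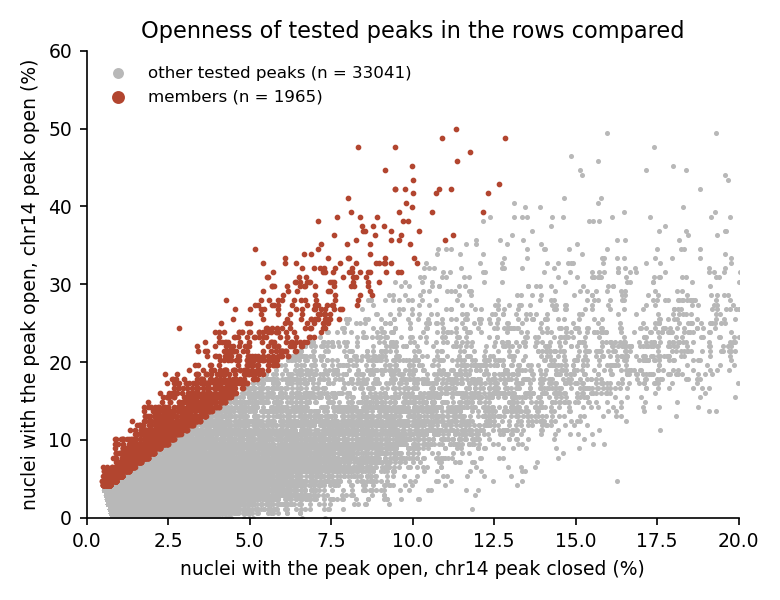
Percent of nuclei with a peak open among the 168 nuclei open at the chromosome 14 peak (vertical axis) and among the 2569 closed at it (horizontal axis), 1 point per tested peak. Members (red) lie along the upper edge up to 50% of the open nuclei, and 461 tested peaks, none of them members, lie beyond the axis limits of 20 and 60%.

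The 10 members with the highest ratio lay on 10 different chromosomes. For the first, chr7:33487582-33488086, 41 of 168 nuclei were open (24.4%, 18.1 to 31.6), compared with 73 of 2569 (2.84%, 2.23 to 3.56), and the ratio was 4.20. The second, chr18:9302155-9302951, was open in 58 nuclei (34.5%, 27.4 to 42.2) against 133 (5.18%, 4.35 to 6.11), a ratio of 3.72. Their intervals did not overlap, but both peaks were selected for this difference. The third, chr20:15434616-15434947, was sparse, with 17 nuclei (10.1%, 6.01 to 15.7) against 22 (0.856%). The others were chr12:30300863-30301272, chr4:21983437-21983862, chr19:22399156-22399712, chr5:55073556-55073927, chr15:29786765-29787170, chr2:46288462-46288856 and chr16:28744520-28744932, with ratios of 3.50 to 3.63. Within depth classes the ratios of all 10 were 3.13 to 3.77. By run of the matrix (described at the end), the first was open in 18 of 68, 12 of 36, 8 of 50 and 3 of 14 nuclei open at the chromosome 14 peak. Every run thus held some of these calls, but the ratio of this peak was not computed by run.

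A separate set of 10 members was the most widely open in the nuclei with the chromosome 14 peak open. These were open in 73 to 84 of the 168 nuclei (43.5 to 50%) and in 294 to 412 of all nuclei. None of them was among the 10 with the highest ratio, and their ratios were 2.38 to 3.41. At the top stood chr5:19842680-19843279, with 84 of 168 nuclei (50%, 42.2 to 57.8) compared with 291 of 2569 (11.3%, 10.1 to 12.6). The peak chr7:37237393-37237964 was open in 80 nuclei (47.6%, 39.9 to 55.5) against 214 (8.33%, 7.29 to 9.47) and had the highest ratio of this set. By run it was open in 34 of 68, 14 of 36, 26 of 50 and 6 of 14 such nuclei. No member was open in more nuclei than chr18:14798352-14799051, with 412. At the threshold, the 3 members just inside had ratios of 2.001 to 2.002 and the 3 tested peaks just outside had ratios of 1.998 to 1.999. Of the last, chr1:15289280-15290111 was open in 58 of 168 nuclei (34.5%), as many as the second member by ratio, but also in 277 of the others.

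The share of peaks that were members differed with openness. Of peaks open in 20 to 49 nuclei 3.28% were members (504 of 15370), of those open in 50 to 99 nuclei 7.58% (689 of 9092), of those open in 100 to 199 nuclei 9.56% (577 of 6036), and of those open in 200 to 399 nuclei 5.88% (194 of 3299). Among the 1209 peaks open in 400 or more nuclei there was 1 member. The added 10 per 1000000 holds the ratio of sparse peaks down. A widely open peak could still reach 2, as chr18:14798352-14799051 did with 2.38 while open in 412 nuclei. Why so few of the most widely open peaks were members was not tested. A further 124 peaks reached a ratio of 2 but were open in fewer than 20 nuclei, out of 15378 such peaks.

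Ratios were lower, but mostly near the limit or above it, when nuclei of like depth were compared. When the calls in nuclei open at the chromosome 14 peak were set against those expected from closed nuclei of the same depth class, 1532 of 1965 members (78.0%) kept a ratio of 2 or more, where 1598 of all tested peaks (4.56%) had one. The nuclei are those that chose the members, so these values too are a description. The lowest ratio of a member was then 1.73, with a median of 2.17 over members and 0.931 over all tested peaks.

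The share of its open calls that a nucleus spent on members fell into separate modes. Only calls at tested peaks were counted. Nuclei open at the chromosome 14 peak had a median share of 15.1%, with quartiles of 13.6 and 16.6%. In nuclei closed at it the median was 2.12%, but the distribution had a second, smaller rise: 1653 of 2569 had under 3%, 142 had 6 to 10%, and 432 had 11 to 16%. The rule used only the summed calls of the closed nuclei, so the way those calls were spread among closed nuclei was not fixed by it. Most closed nuclei thus had a low member share. A minority had 11 to 16%, a range that also held 90 of the 168 open nuclei.

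**Figure D2:**
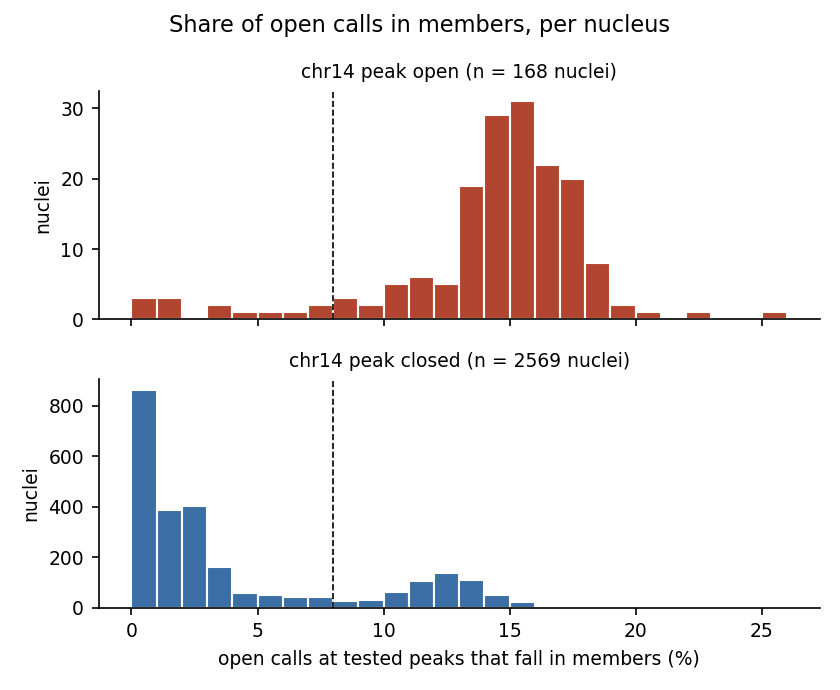
Number of nuclei by the percent of their open calls at tested peaks that fell in members, in bins of 1%, for nuclei open (upper) and closed (lower) at the chromosome 14 peak; the dashed line marks 8%. Of the open nuclei 155 of 168 lie at or above the line, and the closed nuclei show 1653 below 3% and a second rise with 432 between 11 and 16%.

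A share of 8% or more, a limit set after the distribution was seen, was reached by 715 nuclei (26.1%, 24.5 to 27.8). This is a range of a score and not a cell type, and 150 nuclei had a share of 6 to 10%. The members were chosen for being high in the 168 nuclei, so the share of those nuclei above the limit follows largely from the rule, and the next values are a description. Among the 715 nuclei the chromosome 14 peak was open in 155 (21.7%, 18.7 to 24.9), and among the 2022 nuclei under the limit it was open in 13 (0.643%, 0.343 to 1.097). Of the 715 nuclei, it was open in 140 of the 576 with 1000 or more open peaks (24.3%) and in 15 of the 139 shallower ones (10.8%). The median depth of high-share nuclei was 1709 open peaks with the chromosome 14 peak open and 1466 with it closed. The 13 open nuclei under the limit had a lower median depth, 912, but were not all shallow. Of these 13, 5 were in the highest of the 10 classes of depth and 2 in the lowest.

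Members on separate chromosomes rose in the same nuclei. The 1068 members on odd-numbered chromosomes and the 897 on even-numbered chromosomes gave each nucleus 2 shares with no peak in common. Over the 2569 nuclei closed at the chromosome 14 peak these shares had a Pearson correlation of 0.967. Both shares of a nucleus come from the same library and depth, and many nuclei come from the same library. The closed nuclei include ones of low and of high share. The value thus takes in the distance between these as well as the spread within each. In closed nuclei with an odd-chromosome share of 8% or more the median even-chromosome share was 12.2%, against 1.26% in the rest. Of the 564 closed nuclei at or above 8% on odd-numbered chromosomes, 537 (95.2%) were so on even-numbered chromosomes too.

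**Figure D3:**
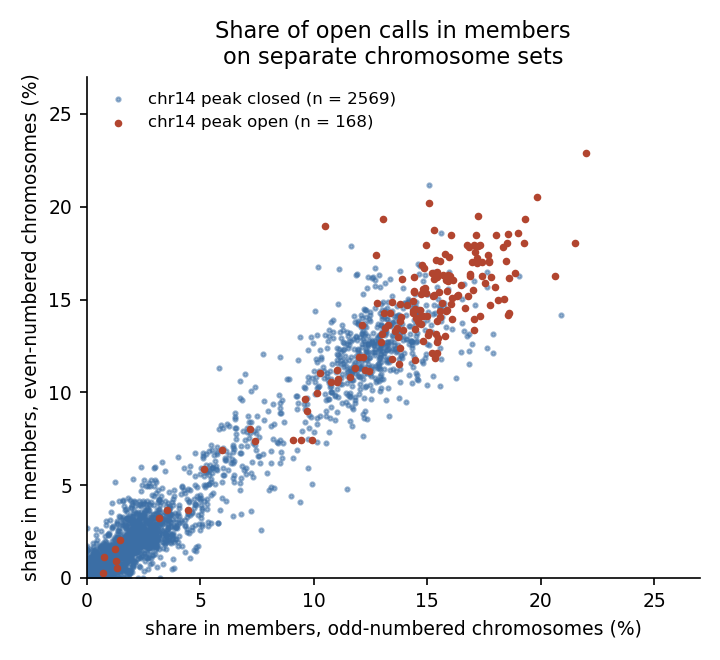
Percent of open calls in members on even-numbered chromosomes against that on odd-numbered chromosomes, 1 point per nucleus, for nuclei closed (blue, 2569) and open (red, 168) at the chromosome 14 peak. The closed nuclei form a dense group near the origin and a smaller one around 12% on both axes. Most of the open nuclei lie higher than the latter, with a median share over all chromosomes of 15.1%. The rule chose members for being high in the open nuclei.

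The co-opening of members was next measured as the number of open pairs, with one member on an odd-numbered and one on an even-numbered chromosome, divided by the number that nuclear depths alone would give. Only nuclei closed at the chromosome 14 peak were used. The ratio was 2.29 for pairs of members. It was 1.05 and 1.07 for a member with a tested peak outside the set, and 0.977 for pairs outside the set. Taken by chromosome, members of 1 chromosome co-opened with members of all others at 2.20 to 2.34 times the expected number (SD 0.0369, 25 chromosomes). These values come from the same nuclei and overlapping pairs, so their SD describes the chromosomes and is not an error of the ratio. Within closed nuclei at or above 8% the ratio was 1.004, and in those below it was 2.50, so that among high-share nuclei members opened together no more often than depth gave. The limit of 8% was applied to the same calls, which by itself narrows the spread of the shares within each range.

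The members were then examined in closed nuclei alone, comparing nuclei of high and low member share. The share was computed without the chromosome of the peak in question, which put 551 to 564 nuclei at or above 8%. With the rule's own ratio and limit, 1644 of 1965 members (83.7%) were at least 2 times as high in the high-share nuclei, against 13.2% of all tested peaks and 9.02% of those outside the set. The median ratio was 3.14 for members and 0.813 for the other tested peaks. The lead peak chr7:33487582-33488086 was open in 62 of 556 high-share nuclei (11.2%) and 11 of 2013 low-share nuclei (0.546%). The contrast was stronger for chr7:35529474-35530123, open in 215 of 556 (38.7%) and 20 of 2013 (0.994%), a ratio of 14.2. That member was among the 10 open in most nuclei, where the ratios were 4.14 to 14.2, against 2.27 to 9.60 for the 10 members first by the rule's ratio.

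The share of members that reached 2 in closed nuclei differed with openness, as did the share of all tested peaks. Of members open in 20 to 49 nuclei 283 of 504 (56.2%) reached 2 in the closed nuclei, of those open in 50 to 99 nuclei 620 of 689 (89.99%), of those open in 100 to 199 nuclei 550 of 577 (95.3%), and of those open in 200 to 399 nuclei 190 of 194 (97.9%). Of all tested peaks in these 4 classes, 8.64, 17.4, 19.7 and 14.6% reached 2. The added 10 per 1000000 weighs on sparse peaks most. It applied in the rule too, and its part in these differences was not tested. Below a ratio of 1.5 were 93 members, open in a median of 33 nuclei, and 6 members were below 1, open in 45 nuclei at most. The median of the other tested peaks was 0.813, so most of those were below 1. Outside the set, 2979 tested peaks reached 2 in the closed nuclei, more than there are members, so the list held a part of the peaks that were higher in high-share nuclei. The peak just outside the threshold, chr1:15289280-15290111, was open in 31.4% of high-share and 4.99% of low-share closed nuclei.

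Within the high-share nuclei, member ratios between nuclei open and closed at the chromosome 14 peak were lower than over all nuclei. Both sides were selected for a member share of 8% or more, with medians of 15.2% (open) and 12.5% (closed). That selection by itself lowers these ratios, so the drop says nothing of the chromosome 14 peak. Comparing high-share nuclei open and closed at it, the median ratio of members was 1.23 and that of the other tested peaks 0.978. Of the members 48 (2.44%) reached 2, where 0.557% of all tested peaks did. Above 1 were 1691 members (86.1%), where 43.4% of the other tested peaks were. These nuclei include those the rule used, so higher values among members follow in part from the choice. Single members differed. The member chr18:14798352-14799051 had a ratio of 2.38 over all nuclei and of 0.988 within the high-share nuclei, unlike most members. The lead member chr7:33487582-33488086 had 4.20 over all nuclei and 1.75 within the high-share nuclei.

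The members were set against a chromosome 18 peak near 20.14 Mb (824 bp wide, open in 141 nuclei) and a chromosome 20 peak near 6.81 Mb (728 bp, 195 nuclei), which the rule did not name. These peaks had been picked as leading other clusters of nuclei, with results of these data known. Few shared nuclei, low member shares and low member ratios can follow from that choice. The values here and in the next paragraph are therefore a description. Both peaks were rarely open in the same nuclei as the chromosome 14 peak. Only 5 nuclei were open at both the chromosome 14 and 18 peaks, where the depths of the nuclei gave 12.9, and 3 at both the chromosome 14 and 20 peaks, where depth gave 10.6. Of the 141 nuclei open at the chromosome 18 peak 4 (2.84%) had a member share of 8% or more, and of the 195 open at the chromosome 20 peak 6 (3.08%) had one. Their median member shares were 2.32 and 0.594%.

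Under the same ratio and limit, 6 members were at least 2 times as high with the chromosome 18 peak open, while 10.8% of all tested peaks did. This is 0.305% of the members and 0.158% of the 3794 peaks that did so. With the chromosome 20 peak no member reached 2, while 3.64% of all tested peaks did (1275 peaks). The median ratio of members was 0.590 with the chromosome 18 peak and 0.557 with the chromosome 20 peak, against 0.914 and 0.850 for tested peaks outside the set. A ratio of 0.5 or less was found for 676 members (34.4%) with the chromosome 18 peak, where 9.51% of all tested peaks had one. With the chromosome 20 peak it was found for 757 members (38.5%), where 12.5% of all tested peaks had one. The 10 members first by ratio had 0.233 to 0.516 with the chromosome 18 peak and 0.254 to 0.674 with the chromosome 20 peak, all below 1. Of the 168 nuclei that chose the members, 163 were closed at the chromosome 18 peak and 165 at the chromosome 20 peak, and their member calls lower these ratios. The ratios were therefore also taken in nuclei closed at the chromosome 14 peak, of which 136 were open at the chromosome 18 peak and 192 at the chromosome 20 peak. The median of members was then 0.623 with the chromosome 18 peak and 0.574 with the chromosome 20 peak, against 0.909 and 0.834 for the other tested peaks. With the chromosome 18 peak 15 members reached 2, where 10.9% of all tested peaks did, and 607 (30.9%) had 0.5 or less, where 10.1% did. With the chromosome 20 peak none reached 2, where 3.59% of all tested peaks did, and 677 (34.5%) had 0.5 or less, where 13.3% did. Open calls are shares of a total, so peaks that rise in a set of nuclei lower the ratios of the rest.

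**Figure D4:**
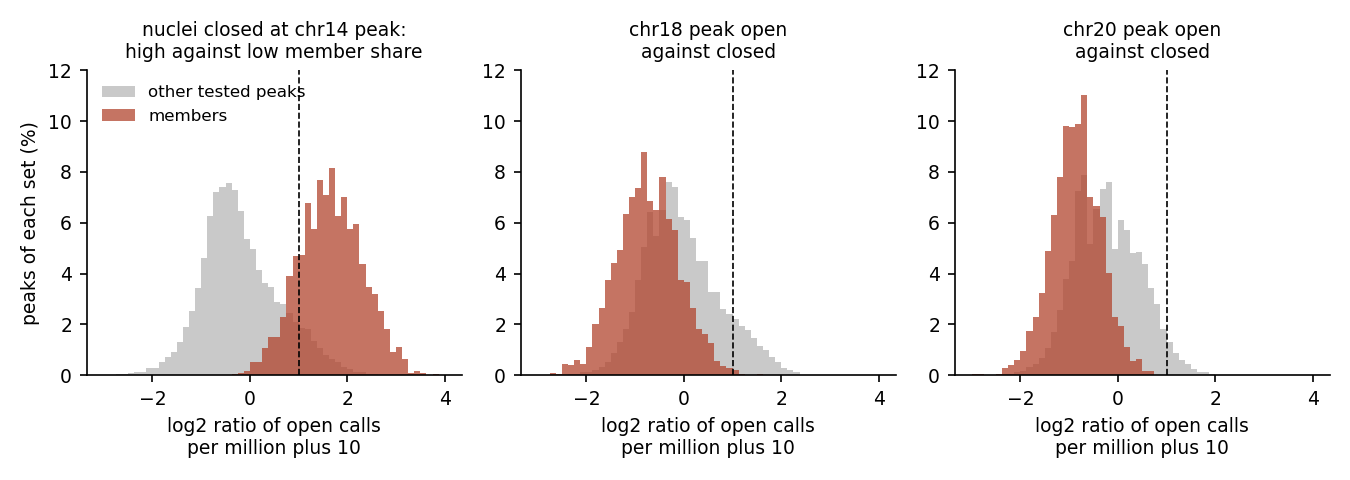
Distribution of the log2 ratio of open calls per 1000000 plus 10 for members (red, 1965) and the other tested peaks (grey), as percent of each set, under 3 splits of the nuclei; the dashed line marks a ratio of 2. Members lie to the right in nuclei closed at the chromosome 14 peak (median ratio 3.14) and to the left with the chromosome 18 and 20 peaks (0.590 and 0.557).

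The list depended on which of its peaks was used to split the nuclei. Splitting instead by the lead member chr7:33487582-33488086, open in 114 nuclei of which 41 were open at the chromosome 14 peak, gave 1945 peaks at or above 2 (5.56%). Of these 991 were members, which is 51.0% of that list and 50.4% of the members. The median ratio of members was 2.01 under this split and that of the other tested peaks 0.867. The 41 shared nuclei were among those that chose the members, and the lead peak is itself a member, picked for its ratio, so this overlap is a description. In the 73 nuclei open at the lead peak and closed at the chromosome 14 peak, 62 (84.9%) had a member share of 8% or more when chromosome 7 was left out of the share. Of the nuclei closed at both peaks 19.8% had one.

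Members were spread over all 25 chromosomes. They were 3.91% of the tested peaks of chromosome 16 (58 of 1485) and 7.77% of those of chromosome 10 (98 of 1262), and the mean over chromosomes was 5.63% (SD 0.954). Chromosome 14 itself held 81 members beyond the 100000 bp left out (6.52% of 1242). The list was thus not drawn from the chromosome of the peak that defined it.

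Members lay close to other members. When the gap to the next tested peak was under 1 kb, 27.2% of the neighbours of members were members, where 3.41% of all peaks at such gaps were. The shares were 23.4% at 1 to 5 kb, 17.4% at 5 to 20 kb and 12.5% at 20 to 100 kb, where 6.83, 6.24 and 4.85% of peaks were members. At gaps of 100 kb or more 4.30% of neighbours were members against 4.76%. The median ratio of the neighbour of a member fell from 1.46 under 1 kb to 1.43, 1.28, 1.13 and 0.833 over the same gaps. Peaks under 1 kb apart may be parts of 1 open region, and a fragment can be counted in both.

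**Figure D5:**
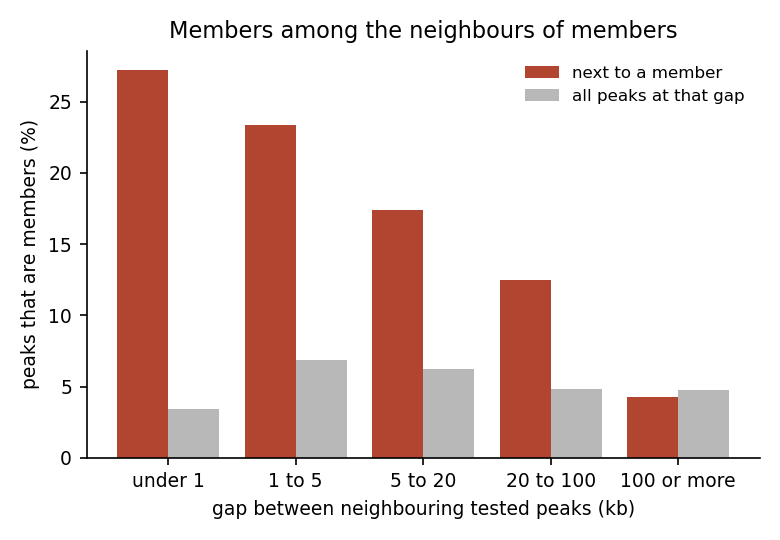
Percent of peaks that are members, for tested peaks next to a member (red) and for all tested peaks with a neighbour at that gap (grey), by the gap to the neighbouring tested peak. The share next to a member falls from 27.2% under 1 kb to 4.30% at 100 kb or more, where it is under the 4.76% of all peaks.

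Most members stood alone between tested peaks outside the set (1369, 69.7%), and 174 were in stretches of 3 or more consecutive members. Members were only 5.61% of the tested peaks, so many would stand alone under any spacing. The number for peaks placed without regard to neighbours was not computed, and these counts do not go against the closeness of members given above. The longest stretches held 6 members, on chromosome 2 from 453228 to 484988 and on chromosome 10 from 25574206 to 25611738. In windows of 500 kb the densest was chromosome 7 from 37 to 37.5 Mb, with 10 members among 18 tested peaks. The other tested peaks there had a median ratio of 1.39. It holds chr7:37237393-37237964 and a stretch of 5 consecutive members from 37368944 to 37392221. Windows and stretches were chosen after their values were seen.

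The neighbourhood that the rule left out held 9 further peaks within 100000 bp of the chromosome 14 peak. Their ratios ran from 0.850 to 2.66, and 3 of them reached 2. The nearest, chr14:31229901-31230326, 6.56 kb before the peak, was open in 17 of 168 nuclei (10.1%) against 50 of 2569 (1.95%), a ratio of 2.46. A peak 93.7 kb before it, chr14:31142382-31143197, was open in 24 (14.3%) against 80 (3.11%), a ratio of 2.43. Within the high-share nuclei these ratios were 1.28 and 1.63, and the third, chr14:31216845-31217277, had 2.66 and 1.25. The 3 peaks after the chromosome 14 peak had ratios under 1.5 and were open in 6 to 23 nuclei.

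Members differed little in width from other peaks of like openness. Their median width was 415 bp against 386 bp for the other tested peaks, but wide peaks are open in more nuclei. Among peaks open in 20 to 49 nuclei the medians were 322.5 and 308 bp, among those open in 50 to 99 nuclei 400 and 405 bp, in 100 to 199 nuclei 478 and 487 bp, and in 200 to 399 nuclei 610 and 583 bp.

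Barcodes were sorted alphabetically within 4 successive runs of the matrix, which held 430, 715, 748 and 844 nuclei. No label ties a run to a library or time point, and no group is assumed. Of 2731 distinct barcodes, 6 occurred in 2 rows each, and none of these 12 rows was open at the chromosome 14 peak. That peak was open in 68 nuclei of the first run (15.8%, 12.5 to 19.6), in 36 of the next (5.03%, 3.55 to 6.90), in 50 of the third (6.68%, 5.002 to 8.72) and in 14 of the last (1.66%, 0.910 to 2.77). The share of nuclei with a high member share followed the same order at both ends, with 63.0% in the first run, 26.3 and 21.7% in the middle runs, and 11.1% in the last. The median depths of the runs were 1382.5, 1294, 1230 and 898.5 open peaks, and the part of depth in these differences was not tested.

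Within each run the members stayed above the other tested peaks. Their median ratios were 1.57, 2.38, 2.53 and 2.71 in the 4 runs, against 0.889, 0.772, 0.854 and 0.578 for the other tested peaks. The first run had the lowest ratio, and there 56.9% of the nuclei closed at the chromosome 14 peak also had a high member share, against 22.7, 16.9 and 9.88% in the others. A ratio of 2 or more was reached by 18.1, 66.6, 76.8 and 60.3% of the members, where 3.22, 10.4, 9.84 and 17.8% of all tested peaks did. These nuclei are those that chose the members, so the values describe how evenly the runs contributed. In the last run, 652 members were open in none of its 14 nuclei with the chromosome 14 peak open. With so few nuclei a single open call can move a ratio far, and there 1306 members were above 1 and 1185 reached 2. The median of 2.71 in that run is thus no measure of a stronger contrast. A count of 0 in 14 nuclei says little of a single member, as the median member was open in 11.3% of such nuclei overall. How many counts of 0 so few nuclei would give was not tested, and the number over all tested peaks is not given here.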

How the data were processed

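NonCM nuclei of 4 libraries (0, 2, 7 and 14 days after amputation) were profiled by scATAC-seq. According to the methods of the study, the authors aligned reads with cellranger-atac, merged the time points, kept nuclei within limits on log UMI, removed clusters of cardiomyocytes and putative doublets, and used SnapATAC. MACS called peaks on sub-clusters, but no source used here says that the matrix columns came from that step. Versions are not given in the sources used here. The deposited values were all 0 or 1, so they are open calls and not read counts. No doublet caller was run.

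The median nucleus was open at 1147 peaks (5th and 95th percentiles 506 and 2844), and the matrix held 3742096 open calls. Nuclei were not treated as replicates. Intervals are exact Clopper-Pearson intervals at 95% and cover counting error only. The chromosome 14 peak, the rule for members, the peaks on chromosomes 18 and 20 and the runs of rows were chosen with earlier results of these data known. Peaks named are the 10 members with the highest ratio, the 10 open in most nuclei with the chromosome 14 peak open, and the 3 on each side of the limit. Others were named after their values were seen. The ratio, the depth correction over 10 classes and the co-opening ratio were tested on simulated data with known changes. The simulated peaks were raised only in nuclei open at the chromosome 14 peak. Co-opening in closed nuclei was therefore not tested against a known rise. Python 3.11.15, numpy 2.4.6 and scipy 1.17.1 were used. Gene starts, marker lists and motifs planned for the members needed an annotation or genome of the build, which was not used here.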

Additional observations from a re-analysis of the deposited data

How the results depend on the processing

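The number of members, 1965, rested on the settings of the rule. It was 4283 with 1 per 1000000 added, 90 with 50 per 1000000 added, 102 at a fold limit of 3, 5416 at a fold limit of 1.5 and 3848 when each nucleus was thinned to 500 open peaks (2606 nuclei). In thinned nuclei 1424 of the 1965 members reached the limit, where 10.99% of all tested peaks did. These 1424 were 37.01% of the 3848 peaks of that list. The number of members stayed within 1.5 times at 1587 in nuclei with 1000 or more open peaks and 1598 within depth classes. It was also within that range at 2080 and 1461 with peaks open in 10 and 50 or more nuclei, and at 1884 without chromosome 14. These last settings leave every ratio as it was and change only which peaks are counted, so they do not test the ratios. Without each run of rows it was 1600 to 2928, the highest without the first run. Of the 1965 members 1758, 1628, 1491 and 1514 were found without runs 1 to 4, where 8.36, 5.85, 5.70 and 4.57% of all tested peaks were. The members found were 60.04, 79.5, 74.8 and 94.6% of those lists. Co-opening of members in closed nuclei, 2.29, stayed above 1 in every setting run. It was 2.08 and 2.57 with 1 and 50 per 1000000 added, 2.84 and 1.83 at fold limits of 3 and 1.5, 2.03 in deep nuclei, 1.73 in thinned nuclei, and 2.34, 2.25, 2.19 and 2.06 without runs 1 to 4. Pairs outside the set gave 0.9496 to 1.004. The median ratio of members with the chromosome 18 peak was 0.549 with peaks open in 50 or more nuclei and 0.490 at a fold limit of 3. It was 0.570 with members chosen within depth classes. With the chromosome 20 peak it was 0.516 with peaks open in 50 or more nuclei and 0.507 at a fold limit of 3. The ratios with the chromosome 18 and 20 peaks were not themselves corrected for depth. In nuclei closed at the chromosome 14 peak, an alternative added after seeing the data, the medians were 0.623 and 0.574. The median width was 453 bp with peaks open in 50 or more nuclei and 422.5 bp at a fold limit of 3, and leaving out sparse peaks, which are narrower, raises the first by construction. For the other changes the cause was not tested. High-share nuclei, 715 of all 2737 (26.1%), were also counted under alternatives added after seeing the data. They numbered 803 and 653 at limits of 6 and 10%, and 719 and 716 from odd- and even-numbered chromosomes alone. With members chosen within depth classes they numbered 653. Among the 1673 deep nuclei 576 were high-share (34.4%), a larger share than over all nuclei. Alternatives on promoter and motif shares were not run. No paired analysis was possible because the nuclei could not be assigned to samples. With 1 value of 0 or 1 per peak and nucleus, a closed call does not show that a peak was inaccessible.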
